A study of Mus musculus with 4 samples.

Results

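The potassium channel genes of the mouse hippocampus were examined on arrays of 4 samples. They were taken as every probe set whose annotation names a single gene with a symbol that begins with Kcn, which gave 51 of 12422 probe sets, for 42 genes. The prefix covers the pore-forming subunits of potassium channels and several families of partner subunits. Total RNA of murine hippocampus had been hybridised to an Affymetrix murine genome array, 1 array per sample, and a probe set is a group of short oligonucleotides that reads a transcript. The labels put all samples in a single group and give no strain, sex, age or treatment, nor whether separate animals were used, so any p-value measures only the spread between these samples, which may be technical. The samples are called 1 to 4, numbers that only name them.

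Potassium channels let potassium leave the cell, which holds the resting potential negative and ends action potentials. Voltage-gated channels open on depolarisation, calcium-activated channels open after calcium entry, inward rectifiers set the potential near rest and carry the inhibitory action of many G protein-coupled receptors, and two-pore domain channels carry leak current. In the hippocampus, voltage-gated channels shape firing in the axons and dendrites of pyramidal cells, granule cells and interneurons.

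Signals are quantile normalized array units, and signals below 27.7 units, the 25th percentile, were set to that floor before log2 was taken. A probe set was analysed further where its mean log2 signal exceeded the median of all probe sets, which equals a geometric mean of 99.6 units. This filter passed 19 of the 51 Kcn probe sets (37.3%), for 17 genes, against 50% of all probe sets by its definition. Just inside it lay Kcns2, with a geometric mean of 113 units, and Kcnab3, with 128 units. Just outside it lay Kcnd3, with 79.2 units, and Kcnn4, with 78.0 units. All 4 samples lay above the floor for 27 of the 51 Kcn probe sets (52.9%), against 64.1% of all probe sets. Signals of different probe sets are not comparable as transcript levels, because each has its own binding strength. Comparisons of level are therefore between samples within a probe set. The shares past the filter or the floor describe array signals and not how abundant the transcripts are. In sums of marker signals, given below, the probe sets with the highest signals weigh most.

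**Figure D1:**
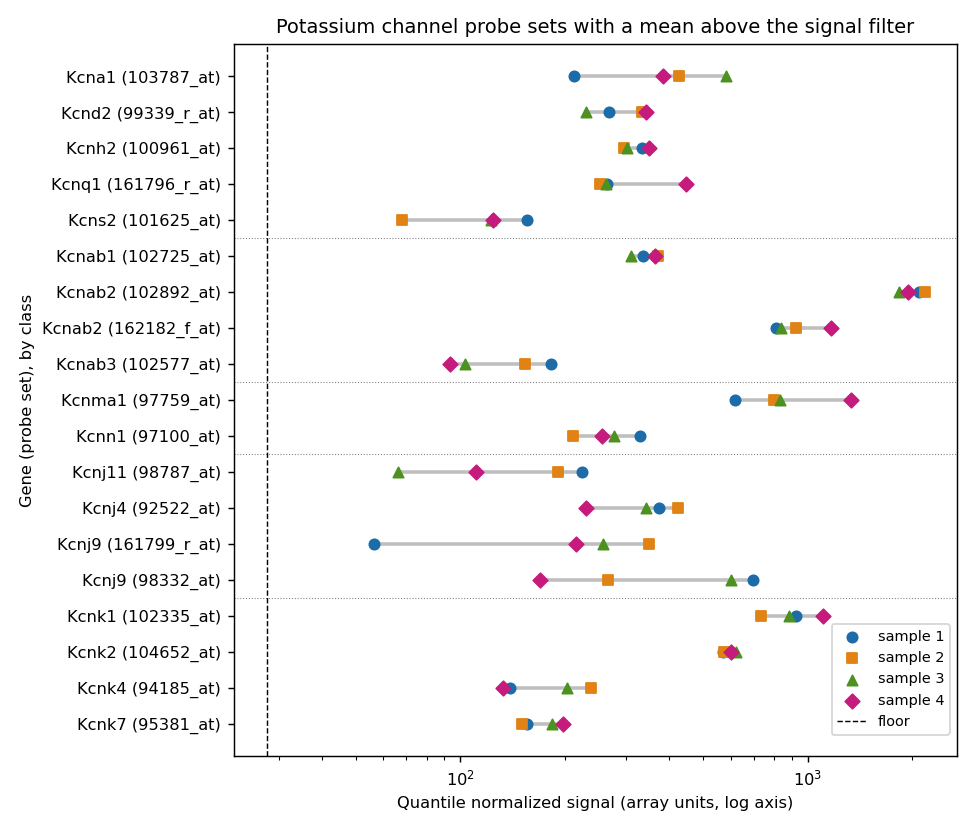
Signal of the 19 analysed Kcn probe sets (array units, log axis) in samples 1 to 4, with a point for each sample, a grey bar from lowest to highest, dotted lines between channel classes and the floor of 27.7 units as a dashed line. The bars are widest for both Kcnj9 probe sets, Kcnj11 and Kcna1 and shortest for Kcnk2.

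Of the listed markers of hippocampal principal cells, 11 were measured and 10 of them analysed, and 0 lay below the floor in every sample. The count was also 0 for the marker lists of red blood cells, vessels, choroid plexus and meninges, so it cannot identify the tissue. The summed signal of the 11 principal cell markers was 6112, 7381, 5487 and 5832 units in samples 1 to 4. Within the list, Camk2a, a kinase of excitatory synapses, was far lower in sample 4 (357, 629.7, 321 and 29.4 units). Prox1, a granule cell factor, lay below the floor in samples 2 and 4. The list was divided, since 2 of the 10 analysed markers were highest in sample 4. These were Neurod2 (736, 638, 622 and 909 units) and Lct (231, 273, 220 and 303 units). Sample 4 had the highest ratio of 3′ to 5′ signal for the control transcripts of Actb (1.84, 1.64, 1.51 and 2.03 in samples 1 to 4) and Gapdh (0.887, 0.864, 0.981 and 1.15). For the control transcript of pyruvate carboxylase sample 3 was nearly as high as sample 4 (2.62, 1.81, 3.03 and 3.16). Among the 51 Kcn probe sets, 15, 11, 15 and 20 lay below the floor in samples 1 to 4, which is 29.4%, 21.6%, 29.4% and 39.2% of them, where 25% of all probe sets do so in every sample. Whether RNA integrity had a part in the Kcn signals of sample 4 was not tested.

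The signals of the Kcn probe sets spread somewhat more between samples than those of the array at large. Their median range from the lowest to the highest sample was 0.82 log2 units (1.77-fold) over the 19 analysed, against 0.53 log2 units (1.44-fold) over all 6211 analysed probe sets. A range of 2-fold or more was measured for 6 of 19 (31.6%), against 14.4% of all analysed probe sets, and a range under 1.5-fold for 7 of 19 (36.8%), against 56.2%. Relative to the SD expected at their signal, the median SD of the Kcn probe sets was 1.28 times the trend, against 0.939 times over all analysed probe sets. The 6 wide ranges belonged to both probe sets of Kcnj9 and to Kcnj11, Kcna1, Kcns2 and Kcnma1. By class, 3 of 4 analysed inward rectifier probe sets, 2 of 5 voltage-gated, 1 of 2 calcium-activated, 0 of 4 auxiliary and 0 of 4 two-pore probe sets reached 2-fold.

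No Kcn probe set was called variable by the test across the array, which called nothing at all. In a limma fit over all 6211 analysed probe sets (one-sided F test against the intensity trend, Benjamini-Hochberg adjustment), 0 of the 19 Kcn probe sets passed an adjusted p of 0.05, against 0% of all, and the smallest adjusted p was 0.515 among them and 0.316 among all. The trend and prior are fitted to these same variances over 4 samples, so the absence of calls does not show that the members were steady. At an unadjusted p under 0.05 there were 4 of 19, against 5.86% of all. A comparison with the median variance of probe sets of neighbouring signal, which allows for no variation of the true variance between probe sets, called 4 Kcn probe sets, both of Kcnj9 and those of Kcna1 and Kcnma1, but also 366 of all 6211 (5.89%). The higher share of 2-fold ranges depended on sample 1. Over the same 19 probe sets the count was 2 without sample 1 (10.5%), close to the 10.8% of all analysed probe sets. It was 5, 6 and 5 without samples 2, 3 and 4 (26.3%, 31.6% and 26.3%), against 10.9%, 10.5% and 7.15% of all. The 2 that remained without sample 1 were Kcnj11 and the Kcnj9 probe set 98332_at.

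**Figure D2:**
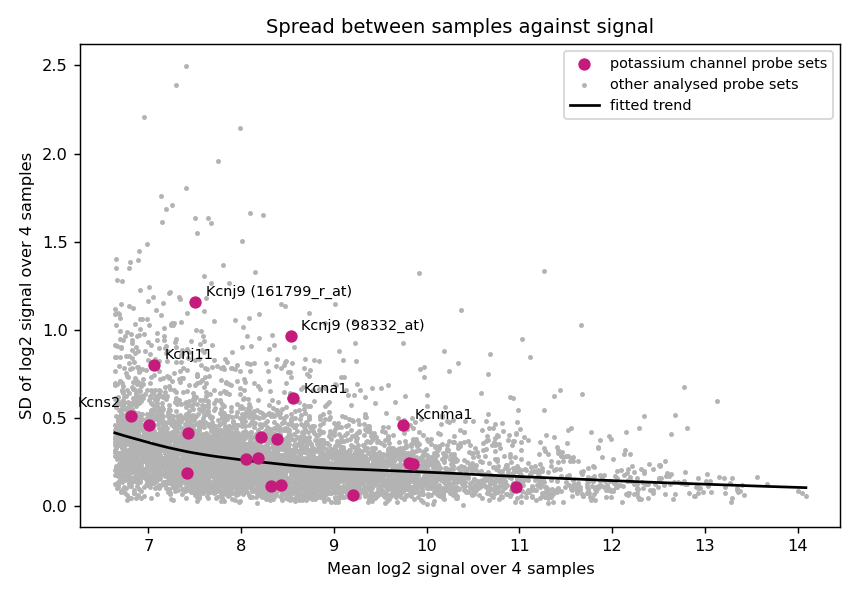
SD of the log2 signal over 4 samples against the mean log2 signal, for the 19 analysed Kcn probe sets (large points) and the other analysed probe sets (small points), with the fitted trend as a line. The 6 named Kcn probe sets, with ranges of at least 2-fold, lie above the trend, and small points at nearby signals lie as high or higher.

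Across the 19 analysed Kcn probe sets the medians of the samples lay close together. Those under the signal filter are not part of these medians. The median log2 deviation of a sample from the mean of the other 3 was -0.05, 0.00, -0.04 and 0.11 in samples 1 to 4, against 0.01, 0.01, 0.01 and 0.02 over all analysed probe sets. In sample 4, 12 of 19 were above the mean of the others (63.2%, against 52.2% of all analysed probe sets), and in each of samples 1, 2 and 3, 9 of 19 were (47.4%, against 51.4%, 51.1% and 51.1%). Sample 4 gave the highest signal for 7 of 19 (36.8%, against 31.2%) and sample 3 for 2 of 19 (10.5%, against 22.5%). Single deviations were far larger than these medians and pointed both ways in every sample, from -2.25 to 1.21 in sample 1 and from -1.50 to 0.84 in sample 4.

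**Figure D3:**
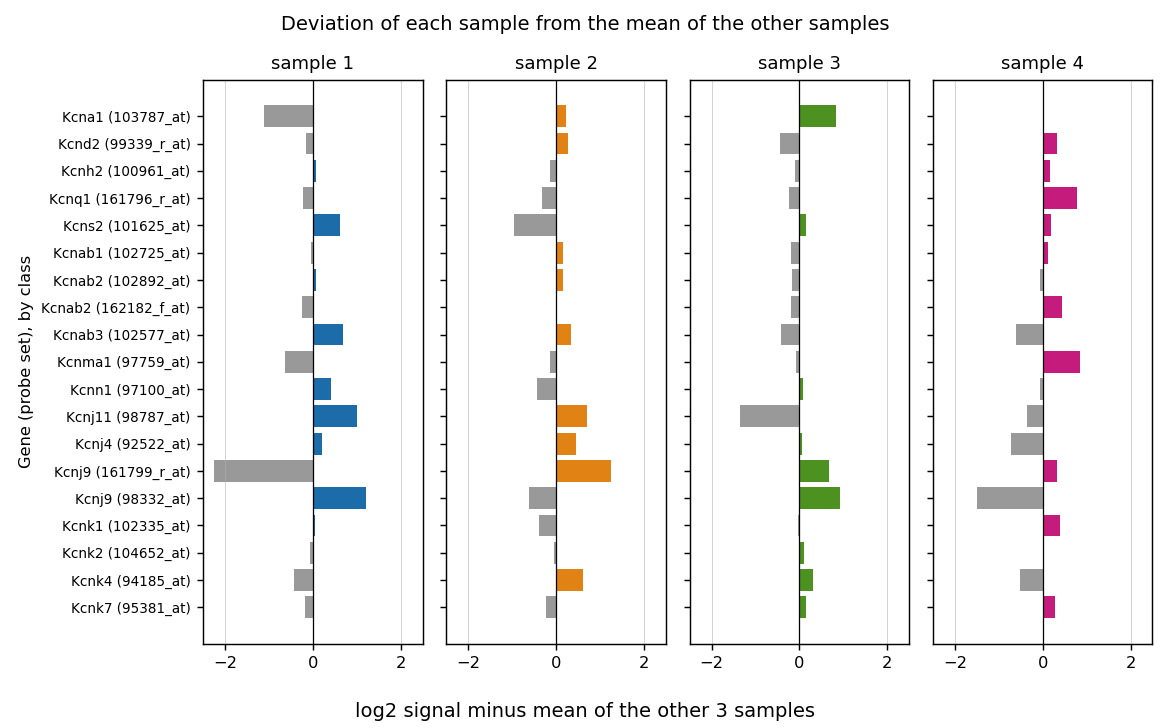
Difference between the log2 signal of each sample and the mean of the other 3, 1 panel per sample and 1 bar per analysed Kcn probe set, coloured above 0 and grey below. Long bars in opposite directions stand for the 2 probe sets of Kcnj9 in sample 1, at -2.25 and 1.21.

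Among the inward rectifiers, Kcnj9 had the widest spread. It encodes a subunit of the channels that open when Gi/o-coupled receptors release G protein beta-gamma dimers, and it acts in tetramers with other subunits of that kind, such as Kcnj3 and Kcnj6. Its probe set 98332_at averaged 433 ± 254 units (SD, n = 4), at 694, 266, 601 and 169.6 units in samples 1 to 4. Samples 1 and 3 were thus high and samples 2 and 4 low, with a range of 4.09-fold and an SD 4.17 times the trend (limma, adjusted p = 0.515). The second probe set, 161799_r_at, averaged 219 ± 122 units (SD, n = 4), at 56.5, 348, 257 and 215 units in samples 1 to 4. Here sample 1 was low and sample 2 high, a range of 6.17-fold (limma, adjusted p = 0.547). The probe sets therefore disagreed on both the highest and the lowest sample, and the range of 161799_r_at shrank to 0.69 log2 units without sample 1, against 2.62 with it. The suffix r marks Affymetrix probe sets for which some of the usual probe selection rules were dropped. In samples 2 and 4, where 98332_at was low, the summed signal of 6 measured oligodendrocyte markers was high, at 7129, 9703, 7029 and 10107 units in samples 1 to 4. Mbp and Mobp made up most of this sum. Mag went another way and was lowest in sample 4 (528, 818, 425 and 403 units), Cnp was above the floor in sample 3 only, and 0 of 6 lay below the floor in every sample. The summed signal of 7 interneuron markers was also higher in samples 2 and 4, at 7394, 8785, 7322 and 7975 units in samples 1 to 4. Within that list Slc32a1 was high in samples 2 and 4, while Gad1 was highest in sample 3 and Vip in sample 1. These lists were named for this order of samples, which the sums of the other marker lists did not have. The probe set 161799_r_at did not have the order of 98332_at. The part of either list in the Kcnj9 signal was not tested. In tissue RNA, fewer cells of a type and less RNA per cell cannot be told apart.

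The probe sets of the other subunits of receptor-gated inward rectifiers lay under the signal filter. Kcnj6 is the subunit altered in the weaver mouse, and its probe set 92523_at was at 94.0, 44.95, 50.5 and 72.65 units in samples 1 to 4, highest in sample 1 and lowest in sample 2. Its probe set 92524_at was also highest in sample 1 (43.2 units) and lay below the floor in samples 2 and 3. Kcnj3 was above the floor in samples 1 to 3, at 44.35, 43.45 and 37.45 units, and below it in sample 4. That is the sample in which 98332_at of Kcnj9 was lowest, but 161799_r_at of Kcnj9 was lowest in sample 1. Sample 4 also had the most Kcn probe sets below the floor, 20 of 51. Kcnj5, best known from the heart, lay below the floor in all samples.

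Kcnj11 encodes the pore of the ATP-sensitive channel that couples metabolism to excitability, with the sulfonylurea receptor Abcc8 as its partner. Across samples 1 to 4 it gave 224, 192, 66.1 and 111 units (148 ± 72.5, SD, n = 4), high in samples 1 and 2 and low in sample 3, a range of 3.39-fold (limma, adjusted p = 0.852). Abcc8 was also highest in sample 1 and lowest in sample 3, with 189.5, 158, 133 and 159 units, but over a range of only 1.43-fold. Summed signals of 3 marker lists were also highest in sample 1 and lowest in sample 3. For 4 red blood cell markers the sums were 14231, 11126, 4652 and 8739 units in samples 1 to 4, carried mostly by Hba-a1, while Klf1 was highest in sample 3. For 5 vessel markers they were 868, 698, 588 and 643 units, and for 4 choroid plexus markers 2982.5, 1625, 1137 and 2266.5 units. Among the vessel markers only Flt1 had this highest and lowest sample. Cldn5 was highest in sample 1 but lowest in sample 4, Pecam1 and Kdr were highest in sample 4, and Tek was highest in sample 2. The choroid plexus sum was carried mostly by Ttr. Ttr and Folr1 had this highest and lowest sample, but Kl and Aqp1 were highest in sample 4. In each of these lists 0 markers lay below the floor in every sample. They were named for this order of samples, which the sums of the other marker lists did not have. The part of the 3 lists in the Kcnj11 signal was not tested. Kcnj4, a strong inward rectifier of forebrain neurons, gave 373, 423, 343 and 229.8 units and was lowest in sample 4, a range of 1.84-fold that came to 0.29 log2 units without that sample, against 0.88 with it.

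Of the remaining inward rectifiers, none reached the signal filter. Kcnj2 lay below the floor in all samples, and Kcnj12 was above it in sample 2 only. Both carry strongly rectifying current, as Kcnj4 does. Kcnj8, the pore of the ATP-sensitive channel of vessels, was above the floor in sample 2 only, at 27.8 units against a floor of 27.7. Kcnj1, a channel of the kidney tubule, was above the floor in samples 2 and 3 by probe set 103973_at (48.4 and 47.0 units) and in none by 103972_at. Kcnj15 was above it in samples 1, 3 and 4 by 99973_s_at (54.7, 48.8 and 53.2 units) and in none by 99974_at. A signal below the floor has no order between samples and does not show that a transcript is absent.

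Among the 5 analysed voltage-gated channels, Kcna1 had the widest range. It forms low-threshold delayed rectifiers of axons and terminals, and mice that lack it have seizures. From sample 1 to sample 4 the signals of Kcna1 were 212, 425, 584 and 383 units (401 ± 153, SD, n = 4). Sample 1 was low and sample 3 high, and the range was 2.75-fold (limma, adjusted p = 0.735). Without sample 1 the range was 0.61 log2 units, against 1.46 with it. Kcns2, an electrically silent subunit that modifies channels of the Kcnb family, gave 155, 68.1, 123 and 124 units (118 ± 36.3, SD, n = 4), with sample 2 alone low. Its range of 2.28-fold (limma, adjusted p = 0.994) came to 0.35 log2 units without sample 2, against 1.19 with it.

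The other analysed voltage-gated members varied less. Kcnh2, of the ether-a-go-go related family that limits repetitive firing, averaged 319.9 ± 25.04 units (SD, n = 4), at 333, 296, 302 and 348 units in samples 1 to 4, a range of 1.18-fold. Kcnd2 carries the transient A-type current of pyramidal cell dendrites. Its probe set 99339_r_at gave 268, 333, 229.5 and 343 units, highest in sample 4 and lowest in sample 3, whereas 98364_at, which lay under the signal filter, gave 71.1, 54.5, 107 and 68.35 units, highest in sample 3 and lowest in sample 2. The order of the samples was thus nearly turned round between the Kcnd2 probe sets. Kcnq1, a delayed rectifier of heart and epithelia, gave 265, 252, 262 and 446 units by 161796_r_at, with sample 4 apart from the other 3. By 99322_at Kcnq1 was above the floor in sample 2 only, at 43.2 units.

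Several voltage-gated members under the signal filter were still above the floor in every sample. Kcna3, known from T cells, was lowest in sample 3 and highest in sample 4, at 94.0, 65.8, 37.2 and 123 units in samples 1 to 4. Kcna4, an A-type channel of axons, gave 72.6, 46.3, 28.5 and 45.75 units and was highest in sample 1. Kcnd3, an A-type channel subunit related to Kcnd2, gave 146, 39.9, 92.9 and 72.85 units, also highest in sample 1 and lowest in sample 2, and Kcns1, another silent subunit, gave 63.0, 51.6, 88.3 and 57.5 units. At such low signals a wide fold range is common: with no signal filter, 22.6% of all probe sets spanned at least 2-fold, against 14.4% with it.

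Kcna2, which pairs with Kcna1 in axons, lay between 84.3 and 92.1 units in samples 1 to 3 and below the floor in sample 4. Kcnc1, a rapidly deactivating channel of fast-spiking interneurons, Kcnd1 and Kcnh1 were each above the floor in 3 of 4 samples, Kcnc1 not in sample 3 and the other two not in sample 4. Kcna5 was above the floor in sample 2 only by 102295_at (55.4 units) and in none by 161775_f_at, and Kcna6 and Kcna7 were above it in at most 2 samples.

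**Figure D4:**
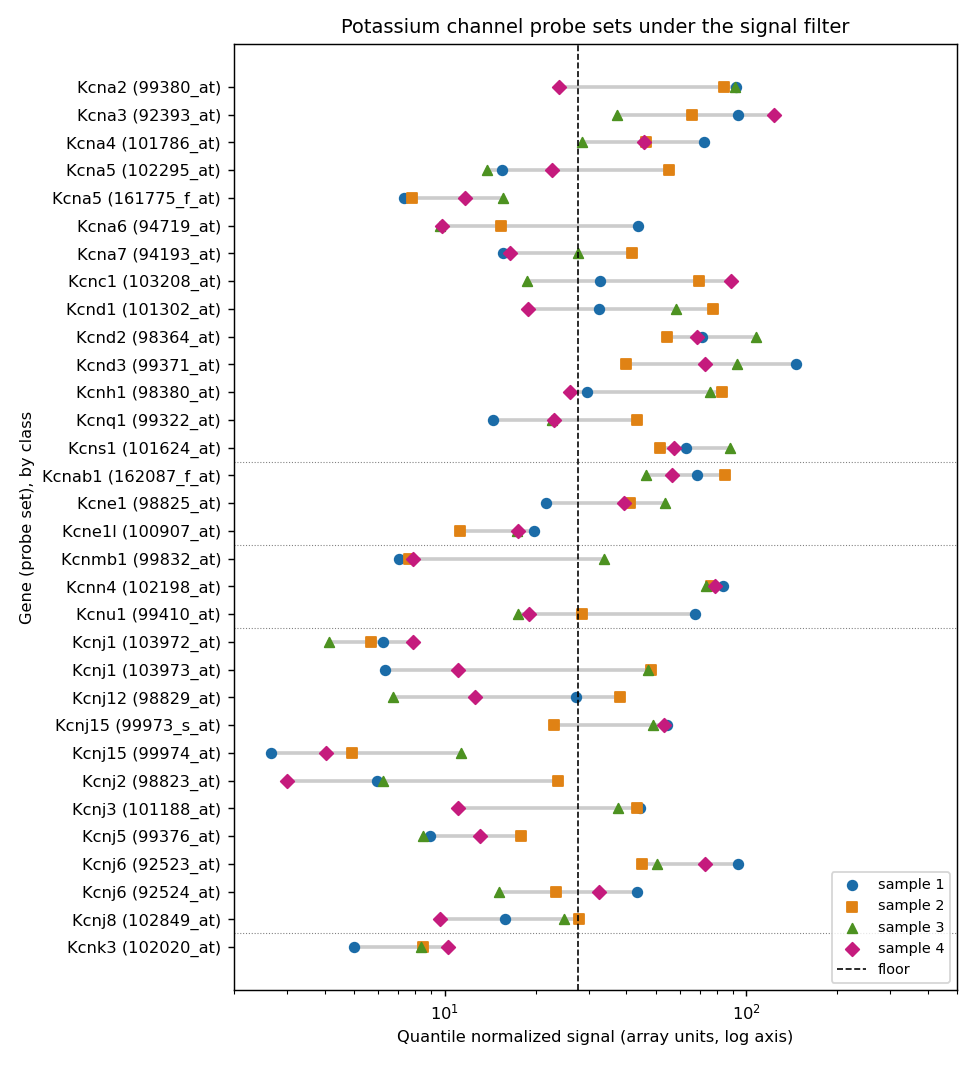
Signal of the 32 Kcn probe sets under the signal filter (array units, log axis) in samples 1 to 4, with a point for each sample, a grey bar from lowest to highest, dotted lines between classes and the floor of 27.7 units as a dashed line. For 8 of them every sample lies right of the floor, and for 7 every sample lies left of it.

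The 4 analysed probe sets of auxiliary subunits had a median range of 0.39 log2 units, against 0.82 over all 19. Kcnab1, Kcnab2 and Kcnab3 encode cytoplasmic beta subunits that bind Kcna channels, alter their inactivation and resemble oxidoreductases. By 102892_at, Kcnab2 averaged 2009 ± 149 units (SD, n = 4), at 2091, 2169, 1836.5 and 1939.5 units in samples 1 to 4, a range of 1.18-fold. By 162182_f_at it gave 811, 923.5, 839 and 1169 units, a range of 1.44-fold. The first was highest in sample 2 and the second in sample 4. Kcnab1 gave 335, 372, 311 and 364 units by 102725_at, a range of 1.20-fold, and its other probe set, 162087_f_at, had the same highest and lowest sample (68.6, 84.65, 46.4 and 56.5 units). Kcnab3 ranged more widely, with 183, 153, 103 and 93.5 units, high in samples 1 and 2 and low in samples 3 and 4, just under 2-fold at 1.96-fold (limma, adjusted p = 0.994). Kcne1, a small membrane subunit that slows Kcnq1 channels, was above the floor in samples 2, 3 and 4, and the related Kcne1l in none.

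Kcnma1 stood out among the calcium-activated channels. It encodes the pore of the large-conductance channel that opens with both calcium and depolarisation and shortens action potentials. Its signals were 618, 800.4, 831 and 1333 units from sample 1 to sample 4 (896 ± 307, SD, n = 4). Sample 4 was high and sample 1 low, with a range of 2.16-fold (limma, adjusted p = 0.839), and without sample 4 the range was 0.43 log2 units, against 1.11 with it. The 3′ to 5′ ratios of Actb and Gapdh were highest in sample 4 too, at 2.03 and 1.15, and their part in the Kcnma1 signal was not tested. Kcnn1, a small-conductance channel gated by bound calmodulin that contributes to afterhyperpolarisation, gave 329.8, 211, 277 and 256 units, highest in sample 1 and lowest in sample 2, a range of 1.56-fold. Kcnn4, the intermediate-conductance relative of Kcnn1, gave 83.85, 76.25, 73.45 and 78.9 units, under the signal filter. Kcnmb1, the smooth muscle beta subunit of the Kcnma1 channel, was above the floor in sample 3 only, and Kcnu1, a channel of sperm, in samples 1 and 2.

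The two-pore domain channels held the steadiest analysed member. Kcnk2, a leak channel that responds to stretch, lipids and volatile anaesthetics, averaged 591 ± 25.2 units (SD, n = 4), at 569.5, 573, 623 and 600.0 units in samples 1 to 4. Its range of 1.09-fold was the smallest of the 19, and its SD was 0.292 times the trend. Kcnk1, a weakly conducting channel found in neurons and astrocytes, gave 922, 732, 881 and 1108 units, lowest in sample 2 and highest in sample 4, a range of 1.51-fold. Kcnk4, a mechanosensitive relative of Kcnk2, gave 139, 238, 203 and 132 units, high in samples 2 and 3 and low in samples 1 and 4, a range of 1.80-fold. Kcnk7, which has not been shown to carry current by itself, gave 155, 151, 184 and 198 units. Kcnk3, an acid-sensitive leak channel, lay below the floor in all samples.

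Of the 42 genes, 9 had 2 probe sets, and only in Kcnab1 did both probe sets share the highest and the lowest sample. Kcnj6 shared the highest sample, and the other 7 shared neither. Low signals limit this count, since both probe sets were above the floor in every sample only for Kcnab1, Kcnab2, Kcnd2 and Kcnj9. Disagreement of this kind was common on these arrays: of 616 genes with exactly 2 analysed probe sets, 182 (29.5%) shared the highest sample and 172 (27.9%) the lowest. The value of a single Kcn probe set is therefore not a firm measure of its gene's order across samples.

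**Figure D5:**
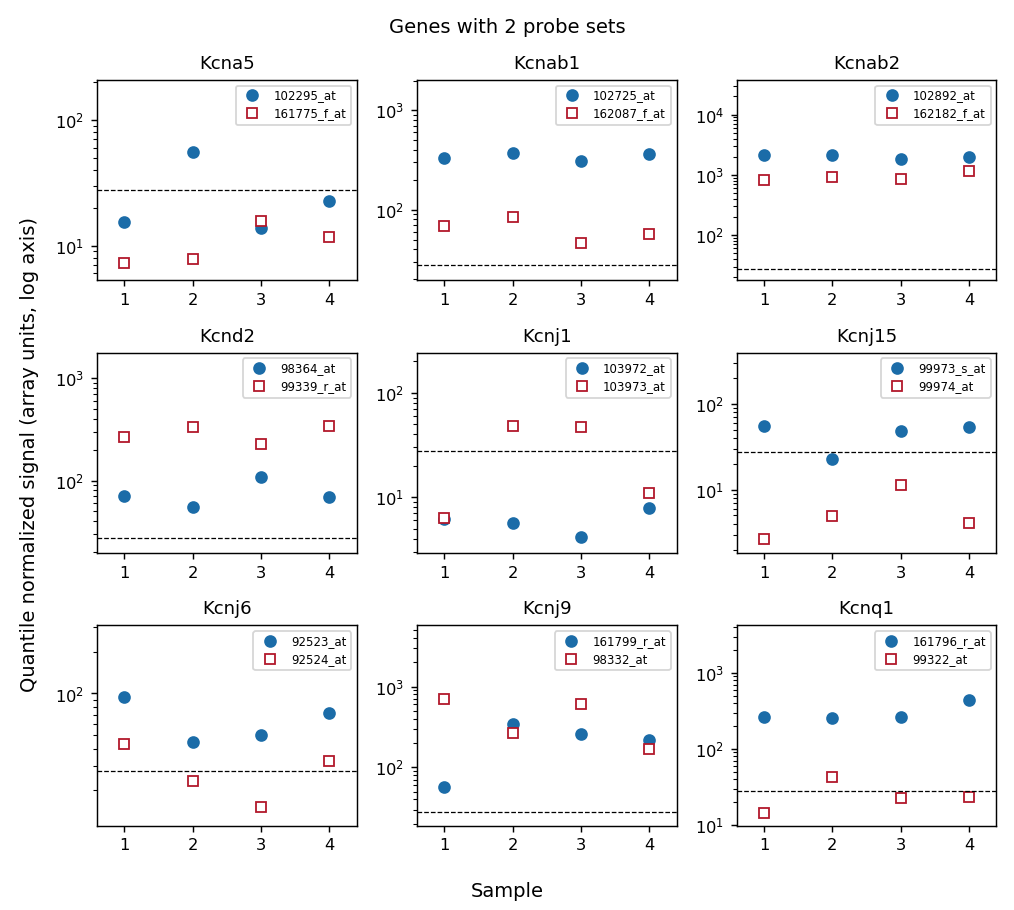
Signal (array units, log axis) in samples 1 to 4 for the 9 Kcn genes with 2 probe sets, with a filled circle for the first probe set, an open square for the second and the floor of 27.7 units as a dashed line. The heights of 2 probe sets are not comparable, and what can be read is which samples are high and low, with the same highest and lowest sample for Kcnab1 and different ones for Kcnj9 and Kcnd2.

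The 250 bases upstream of the RefSeq transcript start are given for Kcnj9 and Kcnma1, the analysed genes with a range of at least 2-fold for which the table held a window, and for Kcnh2, a gene with a small range and a single window. All are on the minus strand of GRCm38.p6 and are written 5′ to 3′ on that strand, with matches to GGGCGG or TATAAA, on either strand, in capitals. The Kcnj9 window is chr1:172329323-172329572, that of Kcnma1 is chr14:24004206-24004455, and that of Kcnh2 is chr5:24329592-24329841.
Kcnj9: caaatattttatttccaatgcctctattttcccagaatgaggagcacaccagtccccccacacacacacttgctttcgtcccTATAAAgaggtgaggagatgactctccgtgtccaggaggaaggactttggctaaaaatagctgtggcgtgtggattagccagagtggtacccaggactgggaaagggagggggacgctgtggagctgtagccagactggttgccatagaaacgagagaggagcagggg
Kcnma1: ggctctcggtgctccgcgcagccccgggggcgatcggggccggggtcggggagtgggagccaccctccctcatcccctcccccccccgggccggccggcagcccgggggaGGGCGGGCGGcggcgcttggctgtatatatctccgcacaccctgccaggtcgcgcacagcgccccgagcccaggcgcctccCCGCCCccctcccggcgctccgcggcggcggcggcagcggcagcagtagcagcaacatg
Kcnh2: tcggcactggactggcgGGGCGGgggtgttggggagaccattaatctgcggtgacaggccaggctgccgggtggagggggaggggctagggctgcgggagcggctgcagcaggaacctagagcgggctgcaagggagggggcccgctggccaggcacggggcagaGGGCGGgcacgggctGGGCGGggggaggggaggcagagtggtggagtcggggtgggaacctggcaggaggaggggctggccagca
The windows differ in base content, with 52% G and C in Kcnj9, 79.2% in Kcnma1 and 73.6% in Kcnh2. GGGCGG, the core of the GC box that Sp1 binds, matched 3 times in Kcnma1, where 2 of the matches overlap, 3 times in Kcnh2 and 0 times in Kcnj9. TATAAA, the core of the TATA box, matched only in Kcnj9, starting 168 bases before the transcript start. The table held windows for 33 of the 42 Kcn genes, 42 windows in all, with several windows for 5 genes. Counted by gene, 20 of the 33 had a GGGCGG match, and no count by gene was made over all windows. A GGGCGG match was present in 20 of these 42 windows (47.6%), against 32.7% of all 32851 windows, a TATAAA match in 1 (2.38%), against 12.4%, and a match to TGACGTCA, the cyclic AMP response element, in 0, against 1.55%. The median share of G and C was 59.6% in the 42 Kcn windows, against 52.4% in all windows, and the part of base content in these match counts was not tested. These matches are letters in a window and do not show that a factor binds there.

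Some Kcn genes on the array are also neighbours in the genome, in the order of protein-coding genes of GRCm38.p6. Kcna5, Kcna1 and Kcna6 lie next to each other on chromosome 6, Kcna3 and Kcna2 on chromosome 3, Kcnj6 and Kcnj15 on chromosome 16, and Kcnj5 and Kcnj1 on chromosome 9. The orders of the samples differed between Kcna3, highest in sample 4, and Kcna2, lowest there. Kcna2 lay below the floor in sample 4, and in every group of neighbours at most 1 gene was above the floor in every sample.

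Partner genes of the channels had median ranges close to that of all analysed probe sets. Of 19 listed auxiliary and anchoring proteins, 11 were measured and 9 analysed, 0 passed the variance test (0% of all), and their median range was 0.51 log2 units, against 0.53 over all analysed probe sets. The widest was Dlg4, the postsynaptic scaffold that clusters Kcna and Kcnj channels, lowest in sample 4, at 844, 746, 733.5 and 501 units in samples 1 to 4. Of 32 listed receptors, G proteins and their regulators, 28 were measured and 17 analysed, 0 passed, 3 had an unadjusted p under 0.05 (5.86% of all), and their median range was 0.59 log2 units, with 4 of 17 at 2-fold or more (14.4% of all). The widest, the G protein gamma subunit gene Gng2, gave 212, 159, 78.0 and 130.2 units, highest in sample 1 and lowest in sample 3. Gnb1, a beta subunit of the dimers that open Kcnj9 channels and a gene named after its values were seen, gave 5253, 2057, 4219 and 2480 units, high in samples 1 and 3 as was Kcnj9 by 98332_at, with a range of 2.55-fold (limma, adjusted p = 0.515). By 161799_r_at, however, Kcnj9 was lowest in sample 1. The beta subunit genes Gnb2 and Gnb5 were highest in samples 2 and 3. Gnao1, an abundant G protein alpha subunit of neurons, was also named after its values were seen, with 3082, 3581, 4305 and 5705 units, lowest in sample 1 and highest in sample 4 as was Kcnma1. Among other alpha subunit genes, Gnai1 had the same lowest and highest sample over 1.16-fold, and Gnai3 was highest in sample 1 and lowest in sample 4.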

How the data were processed

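The deposited table holds linear array intensities, with none below 0, for 12488 probe sets on 4 arrays, 66 of them controls, with the software behind them not given in the sources used here. The mean of each array without its lowest and highest 2% was 249.6 to 249.9 units, so the arrays share a level. After removal of the controls, limma 3.58.1 (R 4.3.3) was used for quantile normalization, and values were floored and taken to log2. The signal filter left 6211 of 12422 probe sets. The variance of each was tested against the intensity trend with robust empirical Bayes estimates (one-sided F test, 3 residual and 5.2 prior degrees of freedom, Benjamini-Hochberg adjustment over all analysed probe sets), after the code had been tested on simulated data. Precision is limited by the number of arrays, and no detection calls were used.

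Probe sets were named from the platform annotation where it gives 1 symbol, which holds for 10833 probe sets, with 396 at several and 1193 at none. All 42 Kcn symbols matched the RefSeq gene table of GRCm38.p6 through the Entrez identifier. Kcn probe sets that were analysed, or above the floor in all samples, were named with all values, and every Kcn gene with 2 probe sets with both of them; the others are given mainly by which samples lay above the floor. Each partner list names its widest analysed gene, and listed genes are represented by their probe set with the highest mean. The members and lists were chosen with earlier results of these data known. Promoter windows come from RefSeq, GRCm38.p6. Abcc8, the G protein genes other than Gng2 and the marker genes given by name were named outside this rule.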

Additional observations from a re-analysis of the deposited data

Results flagged for a closer look

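Of the 19 analysed Kcn probe sets, 1 had a sample far from the others. Kcnq1 by 161796_r_at gave 446 units in sample 4 and 265, 252 and 262 units in samples 1 to 3, so that the gap below sample 4 was 0.913 of the whole range on the log2 scale, above Dixon's critical value for 4 samples. Chance gives such a gap in about 1 of 20 groups, and 374 of all 6211 analysed probe sets (6.02%) had one. Without sample 4 the range of this probe set was 0.07 log2 units, against 0.82 with it. The second Kcnq1 probe set, 99322_at, was below the floor in samples 1, 3 and 4, so it gives no order between them. The 3′ to 5′ ratios of Actb (2.03) and Gapdh (1.15) were highest in sample 4 too, and their part in this gap was not tested.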

How the results depend on the processing

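The count of Kcn probe sets past the variance test was 0 under every alternative except the comparison with the local median variance, which has no prior and gave 4, with 366 called among all 6211. The count with a range of at least 2-fold was 6, stayed between 4 and 7 under the other scalings, floors, the stricter filter and 1 probe set per gene, and was 16 of 51 with no signal filter; leaving out each sample in turn, with normalization and filter repeated, gave 2 (without sample 1) to 6. The median range of 0.82 log2 units lay between 0.62 and 0.84, and between 0.43 (without sample 4) and 0.83 with a sample left out. Median deviations moved by more than their spread between samples with median scaling (-0.13 in sample 2 and 0.18 in sample 4), with no filter (0.00 in sample 4) and with 1 probe set per gene (0.04 in sample 1 and 0.03 in sample 4). With a sample left out they ran from -0.04 to -0.02 in sample 1, -0.10 to 0.16 in sample 2, -0.14 to 0.07 in sample 3 and 0.07 to 0.16 in sample 4. Leaving out a sample cannot widen a range of the same values. Other causes were not tested. No paired analysis was possible because all samples form 1 group. Signals near the floor limit what can be said of the 32 Kcn probe sets under the filter.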

Other observations

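Kcnc1, the channel of fast-spiking interneurons, was among the probe sets under the signal filter, and its values were picked out after they had been seen. It gave 32.7, 69.4 and 88.7 units in samples 1, 2 and 4 and lay below the floor in sample 3. Of 7 measured interneuron markers, the vesicular GABA transporter Slc32a1 was also highest in sample 4 and lowest in sample 3, with 376, 1074, 272 and 1139 units in samples 1 to 4. The rest of the list was divided. Pvalb had the same highest and lowest sample, but ranged only 1.18-fold. Gad2 was highest in sample 4 and lowest in sample 2, and Npy was highest in sample 2 and lowest in sample 3. Gad1 had the reverse order (2129, 1954, 2387 and 1796 units), Vip was high in samples 1 and 3, and Sst was highest in sample 2 and lowest in sample 1. The part of cell composition in these values was not tested.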
